A study of Rattus norvegicus with 24 samples.

Results

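A set of 10 genes of prostaglandin release, synthesis, sensing and breakdown were followed in the rat kidney: Pla2g4a, Ptgs1, Ptgs2, Ptges, Ptgds, Ptgis, Ptger1, Ptger3, Ptger4 and Hpgd. They were followed through all probe sets of the Affymetrix arrays RAE230A and RAE230B that carried 1 of these symbols and no other. This gave 16 probe sets (14 on RAE230A and 2 on RAE230B) of 31142 without controls, and 10 genes of 13810 with a symbol. The kidneys were left kidneys of male rats aged 67 to 69 days of 3 strains. S is the inbred Dahl salt-sensitive strain SS/jr, and ET3x1 and ET3x2 are congenic substrains. As background, such substrains carry alleles from a salt-resistant donor in the region of chromosome 3 near Edn3, which encodes endothelin 3, and are otherwise S. Animals of all 3 strains had eaten 0.4% NaCl until 39 to 41 days of age and then 2% NaCl for 28 days, so no group without the raised salt was measured. Each strain gave 4 RNA pools of different rats, with 2 rats per pool in S (pools A to D) and 3 rats per pool in ET3x1 (pools E to H) and ET3x2 (pools I to L), 32 rats in all. One pool was 1 replicate (n = 4 per strain), and an S pool averaged over fewer animals than a substrain pool.

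Prostaglandins are made from arachidonic acid, which phospholipases free from membranes. Cyclooxygenases turn it into prostaglandin H2, and a separate synthase then makes each product: prostaglandin E2, prostaglandin D2 or prostacyclin. The products act close to where they are made, through receptors on the cell surface, and are then taken up and oxidised. In the kidney, prostaglandins of the medulla oppose salt and water reabsorption, while those of the vessels and the macula densa act on blood flow and renin release.

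The entry step of synthesis has a constitutive form, Ptgs1 (cyclooxygenase 1), and an inducible form, Ptgs2 (cyclooxygenase 2), and the 250 bases before their RefSeq starts are shown because only the first of them gave a signal above the filter used for testing. Both are read on the plus strand of GRCr8, at chr3:39981169-39981418 for Ptgs1 and at chr13:64713813-64714062 for Ptgs2. Capitals mark matches to 4 short motifs, searched on both strands and chosen after the sequences had been seen: the TATA box (TATAAA), the CCAAT box (its name gives its letters), the GC box (GGGCGG) and the E-box (CACGTG).
Ptgs1: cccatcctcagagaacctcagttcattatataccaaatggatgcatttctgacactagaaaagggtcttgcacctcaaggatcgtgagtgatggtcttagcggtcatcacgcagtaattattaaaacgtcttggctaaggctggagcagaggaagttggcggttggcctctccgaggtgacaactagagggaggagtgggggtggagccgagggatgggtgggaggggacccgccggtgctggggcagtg
Ptgs2: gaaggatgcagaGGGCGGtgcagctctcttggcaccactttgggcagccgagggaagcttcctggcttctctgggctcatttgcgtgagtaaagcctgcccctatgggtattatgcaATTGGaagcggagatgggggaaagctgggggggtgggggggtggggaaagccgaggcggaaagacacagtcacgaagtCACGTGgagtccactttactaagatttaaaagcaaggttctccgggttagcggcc
The Ptgs2 stretch held a GC box from -238 to -233, a CCAAT box on the opposite strand from -133 to -129 and an E-box from -55 to -50, counted from the start. None of the 4 motifs stood in the Ptgs1 stretch. Of 33469 rat promoters of the same length, 30.5% held the GC box, 34.0% the CCAAT box, 12.9% the TATA box and 5.6% the E-box. A promoter entry was given for 9 members, and among these the GC box was found in 6, the CCAAT box in Ptger1 and Ptgs2, the TATA box in Pla2g4a and the E-box in Ptgs2. These are matches of letters and show no binding.

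The values are log2 signals, and a level can be compared between strains but not between probe sets, which differ in how well they bind. A probe set was tested where its mean over the 12 pools reached the 30th percentile of its array type, 7.52 on RAE230A and 6.85 on RAE230B. By this filter 12 probe sets of 8 members were tested and 4 were not: Ptgs2, both probe sets of Ptger1 and one of the pair for Ptger4. Thus Ptgs2 and Ptger1 have levels here but no test. The arrays reported known kidney genes strongly (Umod of the thick ascending limb at 14.39, Slc34a1 of the proximal tubule at 13.87 and Aqp2 of the collecting duct at 12.64), whereas Nos1, which marks the macula densa, lay under the filter at 7.37. Of the adrenal cortex markers, Cyp11b1 (5.85) and both Star probe sets (7.35 and 5.93) lay under the filter and Cyp11a1 (8.23) above it. Pools A and B of S and pool J of ET3x2 stood apart on RAE230A in the 5' minus 3' signal of actin, a guide to how complete the copied RNA was, with values of -1.27, -1.27 and -1.14 against -2.10 to -1.66 in the other 9 pools.

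**Figure D1:**
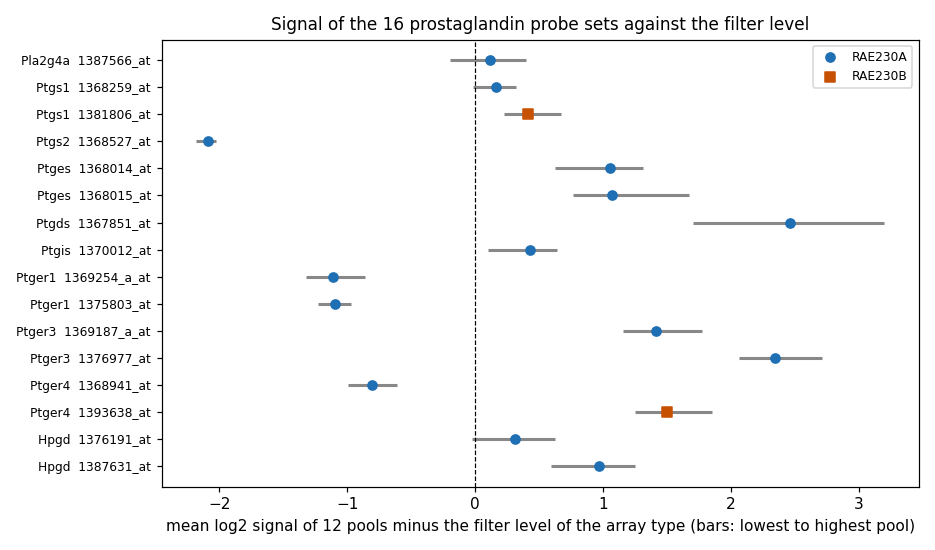
Mean log2 signal of each of the 16 probe sets over the 12 pools, minus the filter level of its array type (x axis), with bars from the lowest to the highest pool; circles are RAE230A, squares are RAE230B. The 4 probe sets left of the dashed line, of Ptgs2, Ptger1 and Ptger4, were not tested, and Ptgs2 lies farthest to the left at -2.09.

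No member probe set passed an adjusted p of 0.05 in limma for any pair of strains or for any difference among the 3 strains (F test). Over all 21799 probe sets tested, the share that passed was 0.44% for ET3x1 with S, 0.344% for ET3x2 with S, 1.48% for the substrains and 1.39% in the F test, so 0 of 12 is near that background. An unadjusted p under 0.05 was found for 3 of 12 member probe sets for ET3x1 with S (11.8% of all probe sets), 3 of 12 for ET3x2 with S (10.9%), 1 of 12 for the substrains (13.1%) and 3 of 12 in the F test (14.2%). These were Ptges 1368014_at, Ptgis and Ptger3 1376977_at in the first comparison, Ptges 1368014_at, Ptgds and Ptger3 1376977_at in the second, and Ptgis in the last pair. The other probe sets of Ptges and Ptger3 had no such p in any pair. The median size of the difference was 0.144, 0.119 and 0.148 log2 for the members and 0.078, 0.077 and 0.083 for all probe sets, in the order of the 3 pairs. The signed medians of the members were 0.035, 0.040 and 0.067, and those of all probe sets were -0.005, 0.025 and 0.032. The 95% intervals of the members reached from -0.51 to 0.78, from -0.37 to 1.07 and from -0.47 to 0.73, in the same order. Both comparisons against S use the same 4 S pools, and their values are not independent of each other.

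**Figure D2:**
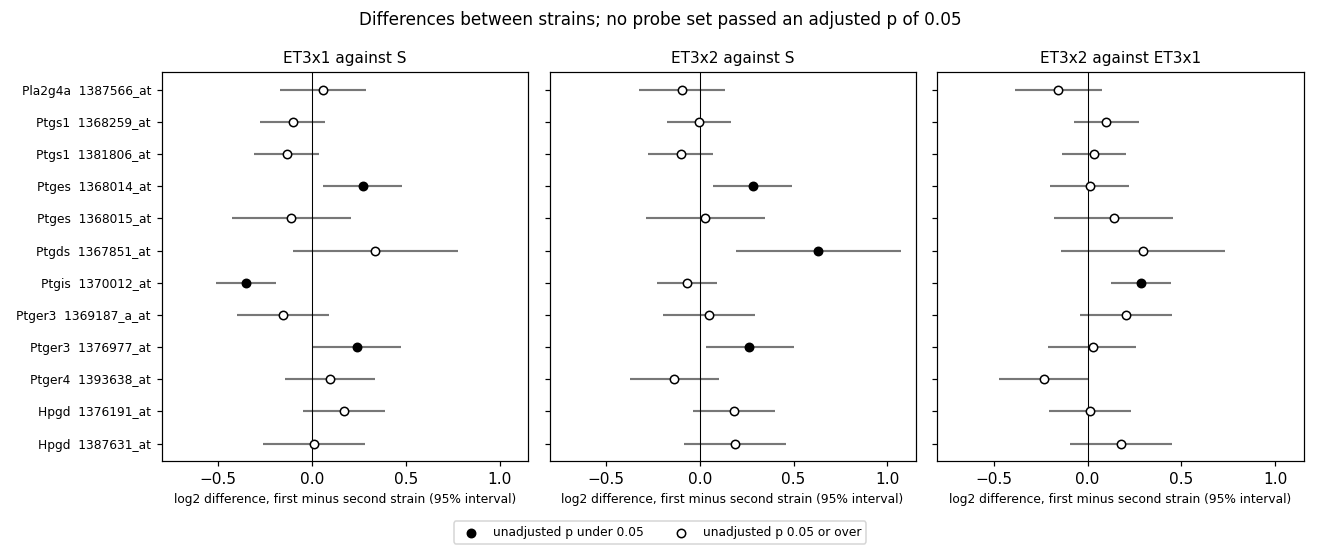
Log2 difference (first minus second strain, x axis) of the 12 tested probe sets in each pair of strains, with 95% intervals from limma; filled points have an unadjusted p under 0.05. Ptgis lies left of 0 in ET3x1 against S (-0.35) and right of 0 in ET3x2 against ET3x1 (0.28), and Ptgds has the widest intervals.

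The substrate of the pathway is freed by Pla2g4a, cytosolic phospholipase A2, on chromosome 13. Its level was 7.64 ± 0.25 in S (SD), 7.70 ± 0.14 in ET3x1 and 7.55 ± 0.066 in ET3x2. Pools ran from 7.32 to 7.92 in S, from 7.57 to 7.86 in ET3x1 and from 7.48 to 7.64 in ET3x2. The S pools spanned those of both substrains, and this order of means did not exceed the spread between pools.

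Ptgs1 carries out the cyclooxygenase step, and its 2 probe sets, 1 on each array type, gave the same order of S above ET3x1. On RAE230A (1368259_at) the means were 7.71 ± 0.15 in S, 7.61 ± 0.067 in ET3x1 and 7.71 ± 0.088 in ET3x2. On RAE230B (1381806_at) they were 7.34 ± 0.12, 7.21 ± 0.16 and 7.24 ± 0.038. The difference of ET3x1 from S was -0.10 on the first and -0.14 on the second, with adjusted p of 0.597 and 0.621 in limma. Pools overlapped between all pairs of strains on both arrays.

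Ptgs2 lay between 5.34 and 5.50 in all 12 pools, and its mean minus the filter level was -2.09. Its means were 5.41 in S, 5.45 in ET3x1 and 5.42 in ET3x2, and the pools of the strains overlapped. In whole kidney Ptgs2 is known mainly from the macula densa and from cells of the medullary interstitium, which are few. How much of this signal is background is not known, so no fold is given and no statement on cyclooxygenase 2 follows from it.

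Ptges makes prostaglandin E2, the main product of the kidney, and its 2 probe sets on RAE230A gave different orders of the strains. For 1368014_at the S pools A to D read 8.39, 8.14, 8.44 and 8.59, the ET3x1 pools E to H 8.55, 8.83, 8.71 and 8.55, and the ET3x2 pools I to L 8.76, 8.58, 8.77 and 8.57. S pools A, B and C lay below every substrain pool, and S pool D, the highest of S, lay above pools E, H, J and L. The mean was 8.39 ± 0.18 in S, 8.66 ± 0.13 in ET3x1 and 8.67 ± 0.11 in ET3x2. ET3x1 was above S by 0.27 (SE 0.098), 1.21-fold, with an adjusted p of 0.274, and ET3x2 above S by 0.28 (SE 0.098), 1.22-fold, with an adjusted p of 0.308.

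The other Ptges probe set, 1368015_at, gave no such order. Its S pools read 8.45, 8.28, 8.54 and 9.19, of which pool D stood far above the rest, and its means were 8.62 ± 0.40 in S, 8.51 ± 0.086 in ET3x1 and 8.65 ± 0.13 in ET3x2. Against S the differences were -0.11 in ET3x1 (adjusted p = 0.779) and 0.03 in ET3x2 (adjusted p = 0.957). Both depended on S pool D: without it they were 0.08 (adjusted p = 0.697) and 0.22 (adjusted p = 0.258), the same direction as for 1368014_at. S pools A and B, which stand apart in actin, were the 2 lowest S pools on both. For 1368014_at, ET3x1 and ET3x2 against S were 0.22 (adjusted p = 0.406) and 0.29 (adjusted p = 0.130) with actin as a covariate, and 0.15 (adjusted p = 0.689) and 0.19 (adjusted p = 0.688) once pools A, B and J were left out. For 1368015_at the values without these 3 pools were -0.36 (adjusted p = 0.503) and -0.26 (adjusted p = 0.674).

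Ptgds makes prostaglandin D2 and had the widest spread of the members. The S pools A to D read 9.53, 9.22, 10.13 and 9.74, the ET3x1 pools E to H 10.04, 10.35, 9.69 and 9.90, and the ET3x2 pools I to L 10.72, 9.77, 10.35 and 10.32. The means were ordered S (9.66 ± 0.38), ET3x1 (9.99 ± 0.28) and ET3x2 (10.29 ± 0.39), but the pools of each pair of strains overlapped. ET3x2 stood above S by 0.63 (SE 0.21, 95% interval 0.19 to 1.07), 1.55-fold, with an adjusted p of 0.264, and neither ET3x1 against S (0.34, adjusted p = 0.492) nor ET3x2 against ET3x1 (0.30, adjusted p = 0.522) passed.

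The lowest S pools in Ptgds, A and B, and the lowest ET3x2 pool, J, are the 3 pools that stand apart in actin. With the actin value as a covariate, ET3x2 against S was 0.64 with an adjusted p of 0.0808, and without the 3 pools it was 0.53 with an adjusted p of 0.459. The genes whose signal followed Ptgds most closely over the 12 pools, among 11106 probe sets of the same array, were Ndufs7 (Pearson r = 0.964), Ndufs3 (r = 0.960) and Uxt (r = 0.956). Ndufs7 and Ndufs3 encode subunits of mitochondrial complex I, and Uxt a prefoldin-like protein. These 12 points share the same libraries and hold the same low pools, and the r values only describe them.

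Ptgis, prostacyclin synthase, came closest to a difference, and it was lower in ET3x1 than in both other strains. The S pools A to D read 7.995, 8.12, 8.07 and 8.16, the ET3x1 pools E to H 7.75, 7.62, 7.63 and 7.92, and the ET3x2 pools I to L 7.99, 8.06, 8.03 and 7.99. Every ET3x1 pool lay below every S pool and every ET3x2 pool, and pool H was the highest of ET3x1. The mean was 8.08 ± 0.069 in S, 7.73 ± 0.14 in ET3x1 and 8.02 ± 0.037 in ET3x2.

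For ET3x1 against S the difference in Ptgis was -0.35 (SE 0.075, 95% interval -0.51 to -0.19), 1.28-fold lower, with an unadjusted p of 0.00032 and an adjusted p of 0.0845. For ET3x2 against ET3x1 it was 0.28 (SE 0.075, 95% interval 0.12 to 0.44), 1.22-fold higher, with an unadjusted p of 0.00191 and an adjusted p of 0.0906. The F test over the 3 strains gave an adjusted p of 0.0716, and ET3x2 against S was -0.07 (adjusted p = 0.781). Across all probe sets tested, the pools did not overlap in 6.4% for ET3x1 with S, in 5.95% for ET3x2 with S and in 9.15% for the substrains. Among the member probe sets tested this was so for 1, 0 and 1 of 12, the 1 being Ptgis each time. Leaving out ET3x1 pool H gave -0.42 with an adjusted p of 0.0293 and 0.35 with an adjusted p of 0.0306. No other pool left out alone brought either difference under 0.05. For ET3x1 against S the adjusted p then ran from 0.0803 (without pool J) to 0.288 (without pool G). Without pools A, B and J the values were -0.38 (adjusted p = 0.196) and 0.27 (adjusted p = 0.191).

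Prostacyclin synthase is best known from vessel walls, and in a piece of kidney fewer such cells and less RNA per cell cannot be told apart. Over 5 probe sets of endothelial markers the mean of values centred on each probe set ran from -0.08 to 0.11 in the S pools, from -0.06 to 0.11 in the ET3x1 pools and from -0.055 to 0.012 in the ET3x2 pools. Over 11 probe sets of smooth muscle, pericyte and interstitial markers it ran from -0.11 to 0.17 in S, from -0.11 to 0.03 in ET3x1 and from -0.13 to 0.08 in ET3x2. Between ET3x1 and S, 4 of these 11 were higher and 7 lower, and 3 of the lower ones had an unadjusted p under 0.05 (1 probe set each of Col1a1, Col1a2 and Pdgfrb). The other probe sets of these genes differed by -0.06 for Col1a1, 0.12 for Col1a2, and 0.01 and 0.05 for Pdgfrb. Of the 5 endothelial probe sets 2 had an unadjusted p under 0.05, Emcn at 0.22 and Tek at -0.18. Among all probe sets 11.8% had such a p in that pair. In neither list did a probe set pass an adjusted p of 0.05 in limma in that pair. The part of these cells in the Ptgis values was not tested.

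Among the 10 members, 4 lie on chromosome 3, which carries the congenic segment, and Ptgis is the nearest to Edn3 of them. By gene order in GRCr8, 66 coding genes separate Ptgis from Edn3, against 1425 for Ptgs1, 1515 for Ptges and 1660 for Ptgds, among 1863 on the chromosome. The bounds of each substrain's segment were not used here, so whether Ptgis lies inside one was not tested. Of the 20 coding genes nearest to Ptgis, 10 on each side and looked at after its values were seen, 17 were tested with 27 probe sets. None passed in limma in ET3x1 against S, where 12 of 27 were higher and 15 lower. There 3 of 27 had an unadjusted p under 0.05 (11.8% of all probe sets). All 3 were higher in ET3x1, the opposite direction to Ptgis: Ddx27 1385471_at (0.29), Ddx27 1397551_at (0.26) and Rnf114 1395198_at (0.23). The other probe sets of Rnf114 differed by -0.06 and -0.36. In ET3x2 against ET3x1, 1 passed (1.48% of all) and 4 of 27 had an unadjusted p under 0.05 (13.1% of all). There 20 of 27 were higher, and 20 of 27 were also higher in ET3x2 against S, where Ptgis differed by -0.07. The medians over all probe sets were 0.032 and 0.025 in these 2 pairs. Among the 4 with such a p in ET3x2 against ET3x1, Snai1 (0.28), Ptpn1 1368645_at (0.25) and B4galt5 1389898_at (0.20) went the same way as Ptgis. None of these 3 passed. The other probe sets of Ptpn1 (1397916_s_at) and B4galt5 (1371537_at) differed by 0.03 and 0.05 in that pair. The one that passed was Ddx27 (1385471_at), an RNA helicase gene, at -0.27 (SE 0.061, adjusted p = 0.0339), and it was above S in ET3x1 by 0.29 (adjusted p = 0.0506), the opposite direction to Ptgis. The first of these Ddx27 differences no longer passed without pool C, E, F, G, H, J, K or L, each left out alone (adjusted p from 0.0540 to 0.145), or without A, B and J together (adjusted p = 0.0593). The other Ddx27 probe set, 1397551_at, differed by -0.14 (adjusted p = 0.571) in ET3x2 against ET3x1. In ET3x1 against S it differed by 0.26 (adjusted p = 0.286), and its pools overlapped in both pairs.

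**Figure D3:**
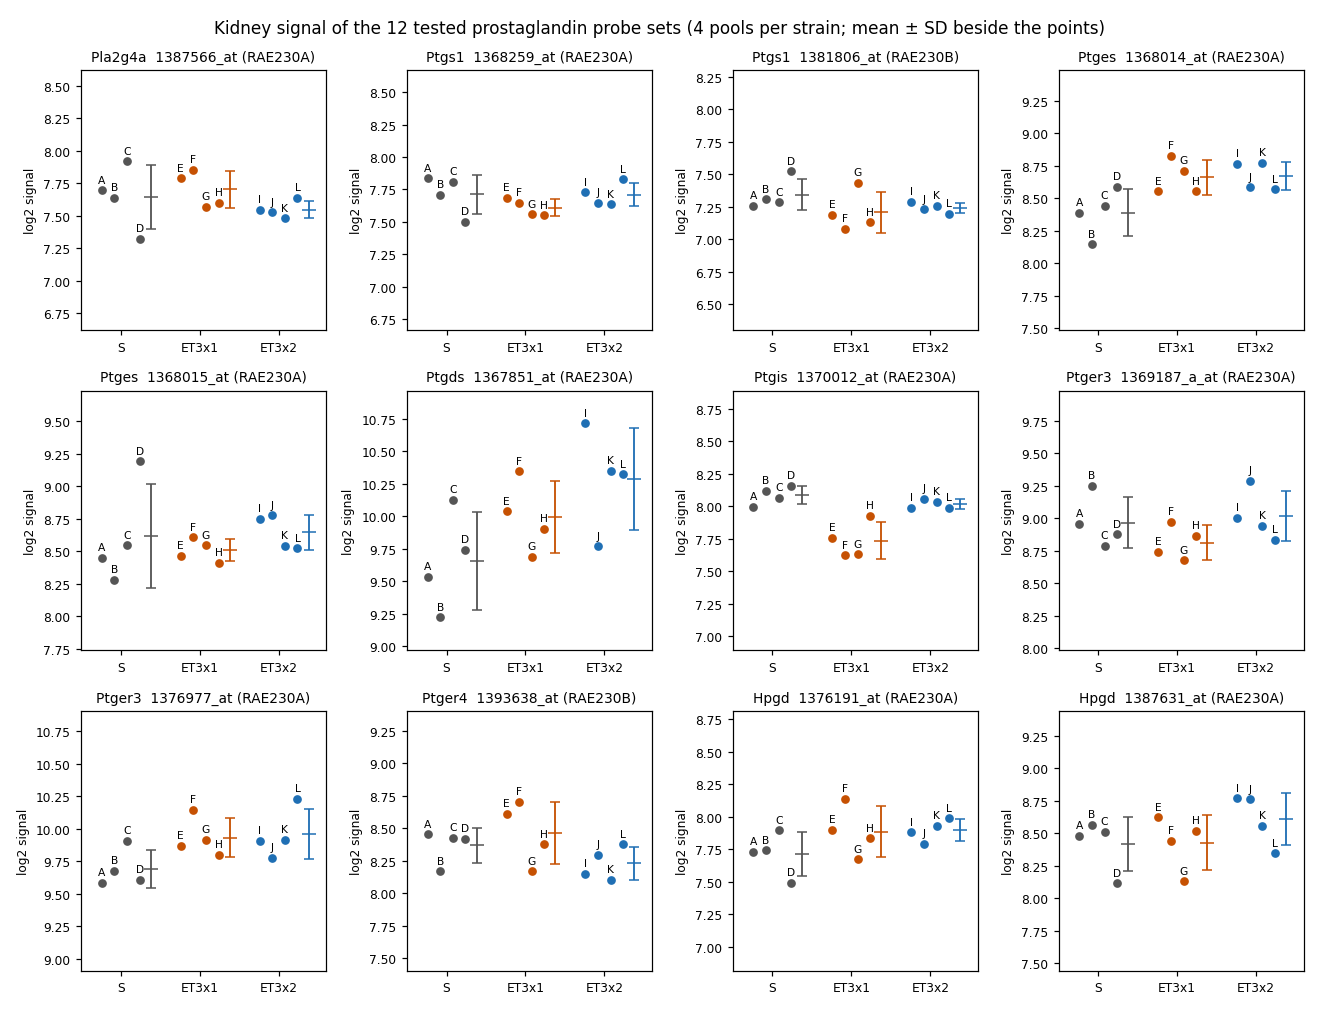
Log2 signal (y axis, each panel spanning the same range of 2 log2 units) of the 12 tested probe sets in each pool, named by letter and grouped by strain on the x axis, with the mean and SD of each strain beside the points. In the Ptgis panel the 4 ET3x1 pools sit below all S and ET3x2 pools, and in the Ptgds panel pools A, B and J sit low.

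Prostaglandin E2 acts through several receptors, of which Ptger3 lowers cyclic AMP and is abundant in the thick ascending limb. Its 2 probe sets, both on RAE230A, disagreed in ET3x1. For 1376977_at the S pools read 9.58, 9.67, 9.90 and 9.61, the ET3x1 pools 9.87, 10.15, 9.91 and 9.80, and the ET3x2 pools 9.91, 9.78, 9.91 and 10.23. Pool C of S reached into both substrains, and the other 3 S pools lay below every substrain pool. The means were 9.69 ± 0.15, 9.93 ± 0.15 and 9.96 ± 0.19, which put ET3x1 above S by 0.24 (SE 0.11, adjusted p = 0.369) and ET3x2 above S by 0.27 (SE 0.11, adjusted p = 0.387).

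For the other Ptger3 probe set, 1369187_a_at, the means were 8.97 ± 0.20 in S, 8.81 ± 0.13 in ET3x1 and 9.02 ± 0.20 in ET3x2. ET3x1 against S was thus -0.15 (adjusted p = 0.577) and ET3x2 against S 0.05 (adjusted p = 0.905). Ptger3 is known to be spliced into several forms with different ends, and which forms each probe set reads was not analysed here. Over 5 markers of the thick ascending limb the centred mean ran from -0.25 to 0.20 in S, from -0.07 to 0.16 in ET3x1 and from -0.17 to 0.06 in ET3x2, and the part of this segment in the Ptger3 values was not tested.

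Ptger4 raises cyclic AMP and in the kidney is known from glomeruli and renin cells. Its probe set on RAE230B, 1393638_at, read 8.37 ± 0.13 in S, 8.47 ± 0.24 in ET3x1 and 8.23 ± 0.13 in ET3x2. ET3x2 against ET3x1 was -0.23 (unadjusted p = 0.0542, adjusted p = 0.466), with overlapping pools. The RAE230A probe set lay under the filter, at 6.80, 6.65 and 6.69 in S, ET3x1 and ET3x2.

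Ptger1 signals through calcium, and in the kidney it is known from the collecting duct, where it restrains sodium uptake. Both of its probe sets lay under the filter, with means of 6.46, 6.33 and 6.43 for 1369254_a_at and 6.47, 6.36 and 6.44 for 1375803_at in S, ET3x1 and ET3x2. For 1375803_at the ET3x1 pools, 6.29 to 6.39, lay below the S pools, 6.42 to 6.55. Both groups lie under the filter level, so no difference is given.

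Hpgd, 15-hydroxyprostaglandin dehydrogenase, starts the breakdown of prostaglandins. For 1376191_at the means were 7.72 ± 0.17 in S, 7.89 ± 0.19 in ET3x1 and 7.90 ± 0.083 in ET3x2, and for 1387631_at they were 8.42 ± 0.21, 8.43 ± 0.21 and 8.61 ± 0.20. ET3x2 was the highest on both, by 0.18 and 0.19 over S (adjusted p = 0.518 and 0.600). Pools overlapped between all pairs of strains, and S pool D was the lowest of the S pools on both probe sets.

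Of 34 further genes of the pathway (other phospholipases, synthases, transporters, reductases, receptors and lipoxygenases), 31 were on the arrays and 26 were tested with 32 probe sets. None passed an adjusted p of 0.05 in limma in any pair of strains. At an unadjusted p under 0.05 there were 2 of 32 in ET3x1 against S, both lower, and 4 in ET3x2 against S (3 higher and 1 lower). In ET3x2 against ET3x1 there were 5 (4 higher and 1 lower). The share of all probe sets tested that had such a p was 11.8%, 10.9% and 13.1% in these 3 pairs. The medians over all 32 probe sets were -0.02, 0.04 and 0.06. Prxl2b, which has prostaglandin F synthase activity, was above S in ET3x2 by 0.28 (SE 0.084, unadjusted p = 0.00577, adjusted p = 0.252). Ptgdr2, a prostaglandin D2 receptor of T cells and eosinophils, was above ET3x1 in ET3x2 by 0.22 (SE 0.063, unadjusted p = 0.00466, adjusted p = 0.139). Over 3 probe sets of lymphocyte markers the centred mean ran from -0.20 to -0.04 in S, from -0.12 to 0.11 in ET3x1 and from 0.05 to 0.18 in ET3x2, and their part in the Ptgdr2 values was not tested.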

How the data were processed

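Signals of the 16 probe sets came from deposited tables with 1 value per probe set and pool, 24 arrays in all. The deposited values were taken as log2 signal because of their range (4.97 to 15.24 on RAE230A, 4.10 to 14.28 on RAE230B). How they were summarised and normalised is not given in the sources used here. RNA was pooled and labelled from oligo(dT)-primed cDNA, per the labels' protocols. Column medians were 8.49 to 8.60 and 7.55 to 7.62, and no scaling was added. Symbols came from the array's annotation updated through RefSeq (GRCr8), and 12783 and 7564 probe sets had 1 symbol. The 57 controls of each array and probe sets under the 30th percentile were left out, and 11106 and 10693 were tested. limma 3.58.1 in R 4.3.3 (lmFit, eBayes with a trended prior) was fitted per array type to all 12 pools, and p-values are two-sided and adjusted by Benjamini and Hochberg within array type and comparison. The fit was checked on simulated data. There is no read depth for arrays, and precision is limited by their number. Each pool holds different rats, so the spread is biological together with that of the assay. Members with adjusted p or unadjusted p under 0.05, or pools that do not overlap, are given with their difference, and pathway genes with an unadjusted p under 0.01 are named. The members, gene lists and this rule were chosen with earlier results of these data known. Promoter sequences are from RefSeq, and Ptgis had no entry. Alternatives covered the filter, normalisation, prior, array weights, pairwise fits, an actin covariate and left-out pools.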

Additional observations from a re-analysis of the deposited data

Results flagged for a closer look

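In S, the Ptger4 probe set 1393638_at read 8.17 in pool B, and 8.42 to 8.46 in pools A, C and D. The gap of pool B to the next pool was 0.875 of the whole range of the strain. This was the only sample to stand so far from its group in 48 checks, 16 probe sets in 3 strains, and chance marks about 1 in 20 such groups.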

How the results depend on the processing

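Over 20 alternatives per pair of strains (19 for the F test), the number of member probe sets past an adjusted p of 0.05 stayed at 0 with these exceptions. With array weights there was 1 in ET3x2 against S (Ptges 1368014_at, 0.35, adjusted p = 0.0465), 1 in ET3x2 against ET3x1 (Ptgis, 0.26, adjusted p = 0.0238) and 2 in the F test (the same 2 probe sets). That setting also passed more of all probe sets: 1.92%, 7.61% and 6.75% in these 3 tests. When each pool was left out in turn, the count ran from 0 to 1 in ET3x1 against S, ET3x2 against ET3x1 and the F test, and the 1 was Ptgis without ET3x1 pool H. Without that pool, 0.362%, 1.3% and 1.2% of all probe sets passed in these 3 tests. In Ptgis, pool H was the highest of ET3x1, at 7.92 against 7.62 to 7.75 in pools E, F and G. Why pool H stood higher was not tested. Of 36 member differences, 26 kept their sign in each alternative that gave a value, and 10 turned in at least 1. When each pool was left out in turn these 10 ran as follows. In ET3x1 against S, Ptges 1368015_at ran from -0.22 to 0.082, Pla2g4a from -0.048 to 0.15 and Hpgd 1387631_at from -0.09 to 0.11. In ET3x2 against S, Ptges 1368015_at ran from -0.082 to 0.22, Ptgs1 1368259_at from -0.075 to 0.036 and Ptger3 1369187_a_at from -0.041 to 0.14. In ET3x2 against ET3x1, Ptges 1368014_at ran from -0.025 to 0.066, Hpgd 1376191_at from -0.06 to 0.10, Ptger3 1376977_at from -0.066 to 0.10 and Ptgs1 1381806_at from -0.009 to 0.11. Signs also turned with array weights in ET3x1 against S (Pla2g4a -0.029, Hpgd 1387631_at -0.016), without pools A, B and J in ET3x2 against S (Ptges 1368015_at -0.263, Ptgs1 1368259_at 0.075), and in ET3x2 against ET3x1 with quantile normalisation (Ptges 1368014_at -0.009, Hpgd 1376191_at -0.013) and the actin covariate (Hpgd 1376191_at -0.013). Ptgis ran from -0.42 to -0.31 in ET3x1 against S (adjusted p from 0.0293 to 0.288) and from 0.25 to 0.35 in ET3x2 against ET3x1 (adjusted p from 0.0238 to 0.282). Ptgds in ET3x2 against S ran from 0.49 without S pool B to 0.81 without ET3x2 pool J (adjusted p from 0.0647 to 0.658). A filter at the 50th percentile dropped Ptgis and left 6 member probe sets. Probe sets called over both arrays ran from 41 (without pool E) to 215 (actin covariate) against 96 in ET3x1 against S, and from 17 (without A, B and J) to 432 (actin covariate) against 75 in ET3x2 against S. They ran from 133 (without pool K) to 1658 (array weights) against 323 in ET3x2 against ET3x1, and from 132 (without pool K) to 1471 (array weights) against 304 in the F test. Signal under the filter level limits Ptgs2, Ptger1 and one Ptger4 probe set, and no background level was measured. Some tested probe sets also lay close to the filter level. Their means were above it by 0.11 for Pla2g4a, 0.16 and 0.41 for Ptgs1, 0.31 for Hpgd 1376191_at and 0.42 for Ptgis. Ptgis was read by 1 probe set only. No paired analysis was possible because pools of different strains share no number.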
